A study of Homo sapiens with 4 samples.

Results

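NT2D1, the line that the labels assign to teratoma, was set against 3 other human germ cell tumour cell lines to find the genes whose level in NT2D1 lay furthest outside the range of the others. NT2D1 is labelled as taken from a lung metastasis of a testicular germ cell tumour. The others are the seminoma line TCam-2, the embryonal carcinoma line GCT27 and the yolk sac tumour line GCT44, each labelled as taken from a testicular tumour. The labels give no treatment or engineered allele for any line. NT2D1, GCT27 and GCT44 were grown in DMEM and TCam-2 in RPMI-1640, all with fetal bovine serum and antibiotics. Total RNA of each line was labelled with biotin and hybridized to 1 oligonucleotide array. Each subtype is therefore represented by 1 established line and 1 array, no line has a replicate, and no difference below carries a replicate error or a p-value. The number of arrays limits the precision. Because these are bulk cultures, fewer cells of a kind and less RNA per cell cannot be told apart.

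Of 19775 genes with a probe set of their own, 14926 reached 76.4 intensity units on at least 1 array and were compared. This value is the median of all values and served as a floor, below which levels were not ordered. NT2D1 counted as higher or lower for a gene when its floored level lay at least 4-fold (2 on the log2 scale) beyond the nearest of the other 3 lines. The distance to that nearest line is called the gap. By this rule 78 genes were higher in NT2D1, 0.523% of the genes compared, and 36 were lower, 0.241%. The called genes number 114 in all. The rule is a measure of size and not a test. Where the side of the gap that is low lies at or below the floor, the fold is only a minimum, given as "at least". The counts depend on which lines NT2D1 is set against, and by construction grow when a line is left out. They were 127 higher and 86 lower without TCam-2, 267 and 120 without GCT27, and 146 and 122 without GCT44.

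Germ cell tumours keep programmes of the early embryo. Embryonal carcinoma cells resemble pluripotent stem cells and can enter neural, mesodermal or endodermal paths, teratoma holds differentiated tissues, seminoma resembles fetal germ cells and yolk sac tumour resembles extra-embryonic endoderm. In the field NT2D1 serves as a pluripotent embryonal carcinoma model and forms neurons when treated with retinoic acid. MAP2 and SOX11 are genes of neurons and neural progenitors, and PNMA2 encodes a neuronal antigen recognized in paraneoplastic disease.

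The labelled subtype was checked against marker lists first. Of 24 genes of differentiated teratoma tissues, such as cartilage, muscle, gut and squamous epithelium, 14 were compared, 8 lay below the floor on every array and 2 had no probe set of their own. In NT2D1 6 of the 14 lay at or above the floor, against 7 in TCam-2, 9 in GCT27 and 10 in GCT44. None was called in NT2D1, but over all genes only 0.523% were higher and 0.241% lower. A list of 14 is too short for that count to be read. Their median log2 difference, NT2D1 minus the average of the others, was -0.25, or -0.10 without GCT27 and -0.39 without TCam-2. Their summed level was 5164 units in NT2D1, against 3081 in TCam-2, 7743 in GCT27 and 15974 in GCT44. The myogenic factor gene MYOD1, the intestinal factor gene CDX2 and the keratin gene KRT14 were among those below the floor on every array. The cartilage collagen gene COL2A1 had 1426 units in NT2D1, against 260 in TCam-2, 45.3 in GCT27 and 5939 in GCT44. Among shared pluripotency genes 12 of 13, and among embryonal carcinoma genes 21 of 22, lay at or above the floor in NT2D1. The share over all genes compared was 83.8% in NT2D1, so the counts of such short lists say little by themselves. The counts of these lists were 12 and 19 in TCam-2, 12 and 22 in GCT27 and 6 and 14 in GCT44. They thus set NT2D1 apart from GCT44 but not from TCam-2 or GCT27. The summed level of the teratoma genes in NT2D1 was below that of GCT27 and GCT44 but above that of TCam-2. Read together, the lists do not settle the labelled subtype, and NT2D1 is named below by its line.

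The pluripotency genes give the background on which the called genes stand. LIN28A, an RNA-binding protein of stem cells, had 30531 units in NT2D1, against 14828 in TCam-2, 21142 in GCT27 and 17340 in GCT44. NANOG, a core pluripotency factor, had 13322 units in NT2D1, against 22390 in TCam-2, 22428 in GCT27 and a level under the floor, 2.29, in GCT44. SOX2, a factor of pluripotent and neural cells, had 20575 units in NT2D1, against 391 in TCam-2, 18309 in GCT27 and 6.41 in GCT44. NT2D1 and GCT27 were thus the high pair for SOX2, while NANOG was low in GCT44 alone. None of the 13 pluripotency genes or the 22 embryonal carcinoma genes was called in NT2D1 in either direction. Over all genes 0.523% were higher and 0.241% lower, so these lists are too short for such counts to be read. A gene about as high in GCT27 as in NT2D1 also cannot be called higher. The median log2 difference, NT2D1 minus the average of the others, was 0.30 for the first list and 1.19 for the second, against -0.03 over all genes compared. Set against GCT27 alone, the medians of these lists were -0.75 and -0.53. Both medians rest on which lines are compared. Without GCT44 the pluripotency median turned to -0.47, with 3 genes called lower, and the embryonal carcinoma median was 0.58. The embryonal carcinoma median was 0.73 without TCam-2 and 2.06 without GCT27, with 9 genes called higher in the last case.

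Over all genes, NT2D1 differed by at least 4-fold from GCT27 at 697 genes, 312 higher (2.09%) and 385 lower (2.58%). It differed from TCam-2 at 1233 genes, 604 higher (4.05%) and 629 lower (4.21%), and from GCT44 at 1273 genes, 710 higher (4.76%) and 563 lower (3.77%). Pearson correlations across the 14926 genes were 0.91 with GCT27, 0.87 with TCam-2 and 0.85 with GCT44, on arrays that the authors had scaled together. The NT2D1 array had a median intensity of 77.4 units, within the 73.6 to 79.3 of the others, and 50.3% of its probe sets lay at or above the floor. Its 3'/5' signal ratio was 2.83 for ACTB, against 2.49 to 4.21 on the others, and 0.98 for GAPDH, against 0.90 to 1.09.

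MAP2, which encodes a microtubule-associated protein of dendrites, had the widest gap of all genes. Its level was 5940 units in NT2D1, against 78.2 in TCam-2, 28.5 in GCT27 and 8.08 in GCT44, a 75.9-fold gap. Only TCam-2 among the other lines lay above the floor, and barely. A second MAP2 probe set read 695 units in NT2D1, against 2.88 in TCam-2, 47.1 in GCT27 and 12.9 in GCT44, so both put NT2D1 apart. PNMA2 had 4389 units in NT2D1, against 58.3 in TCam-2, 152 in GCT27 and 5.49 in GCT44, a 28.8-fold gap. Its other probe set was below the floor on every array and shows nothing either way. SOX11, a transcription factor of neural progenitors, had 1339 units in NT2D1, against 60.2 in TCam-2, 217 in GCT27 and 54.5 in GCT44, a 6.16-fold gap. The remaining SOX11 probe sets had wider gaps, of 3.49 and 3.66 on the log2 scale against 2.62 for the set used. These 3 genes were given as markers of NT2D1 from earlier results of these data, so their gaps describe the line and are no independent check of it.

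**Figure D1:**
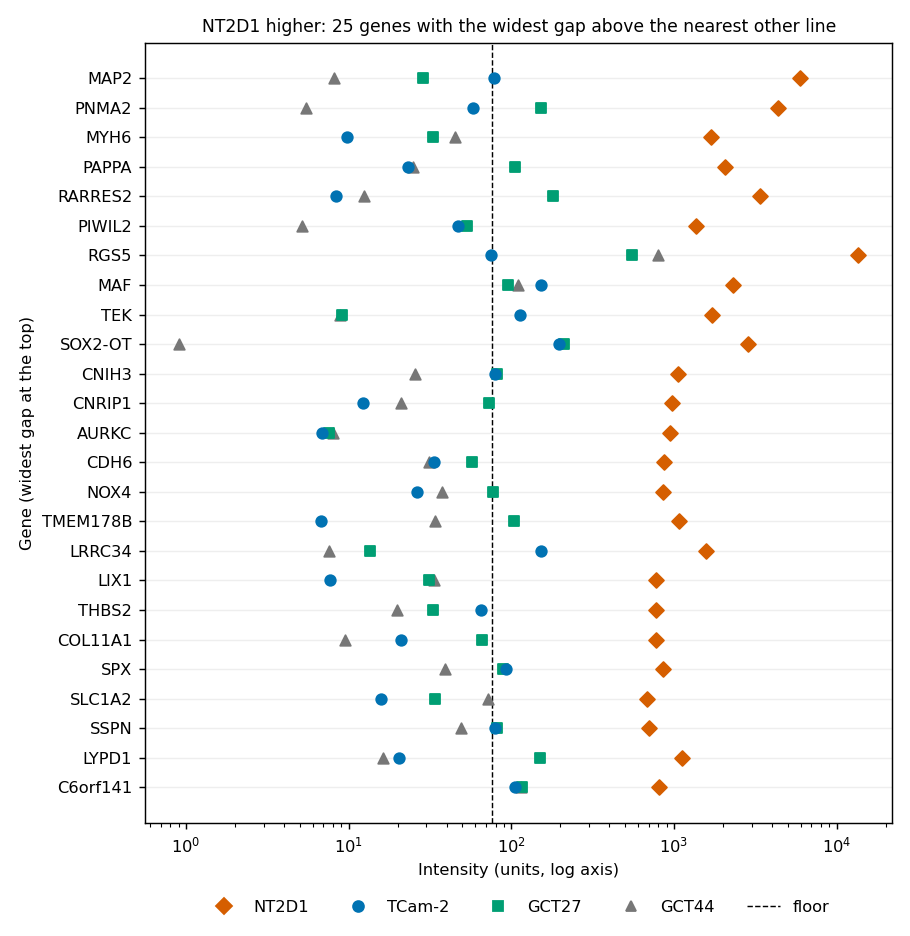
Intensity (units, log axis) of the 25 genes with the widest gap above the nearest other line, 1 array per line. Diamonds are NT2D1, circles TCam-2, squares GCT27 and triangles GCT44, and the dashed line is the floor at 76.4 units. NT2D1 lies to the right of every other line, from 679 units for SLC1A2 to 13625 for RGS5.

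Some genes known from vessels, muscle or matrix were among the 25 widest gaps and are given together here, a grouping made after their values were seen. RGS5, a regulator of G protein signalling known from pericytes, had 13625 units in NT2D1, against 75.3 in TCam-2, 553 in GCT27 and 802 in GCT44, a 17.0-fold gap. Of its 4 further probe sets that were bright enough, 3 were past the rule and the fourth, at 338 units in NT2D1 against 263 in GCT27, was not. TEK, the angiopoietin receptor of endothelium, had 1713 units in NT2D1, against 112 in TCam-2, 9.16 in GCT27 and 8.82 in GCT44, a 15.3-fold gap. NOX4, an NADPH oxidase, had 855 units in NT2D1, against 26.5 in TCam-2, 77.0 in GCT27 and 37.7 in GCT44, an 11.1-fold gap. The other lines were near or below the floor for both genes apart from TCam-2 for TEK.

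MYH6, the alpha heavy chain of cardiac myosin, had 1678 units in NT2D1, against 9.83 in TCam-2, 33.2 in GCT27 and 44.7 in GCT44, and was at least 22.0-fold higher. Its neighbour and near-identical relative MYH7, the beta heavy chain, had 353 units in NT2D1, against 5.88 in TCam-2, 23.4 in GCT27 and 24.0 in GCT44, and was at least 4.62-fold higher. Each had a lone probe set, and which of these similar genes gave the signal is uncertain. The sarcomere and muscle genes DES (83.5 units), ACTA1 (46.9) and CKM (3.40) were near or below the floor in NT2D1. SSPN, sarcospan of the dystrophin complex, had 706 units in NT2D1, against 79.1 in TCam-2, 82.1 in GCT27 and 49.3 in GCT44, an 8.60-fold gap. The matrix genes THBS2, a thrombospondin, and COL11A1, a fibrillar collagen chain of cartilage, were each at least 10.2-fold higher. THBS2 had 779 units in NT2D1, against 65.3 at most elsewhere, and COL11A1 776, against 66.5 at most.

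Secreted and receptor proteins formed another group. PAPPA, a metalloprotease that cleaves IGF-binding proteins and is abundant in placenta, had 2052 units in NT2D1, against 23.1 in TCam-2, 105 in GCT27 and 24.7 in GCT44, a 19.6-fold gap. All 4 further PAPPA probe sets that were bright enough were past the rule, while 6 dim ones lowered its gap to 1.16 when the median over all of them was taken. RARRES2, which encodes the chemoattractant chemerin and was first known as a retinoid-responsive gene, had 3375 units in NT2D1, against 8.34 in TCam-2, 180 in GCT27 and 12.5 in GCT44, an 18.7-fold gap. CMKLR2, a receptor for chemerin, was also called, with 1044 units in NT2D1, against 172 in TCam-2, 70.4 in GCT27 and 108 in GCT44, a 6.08-fold gap. It lies outside the naming rule and was picked after its values were seen. Ligand and receptor were thus both highest in NT2D1, without a second probe set for either. SPX, the peptide hormone spexin, had 856 units in NT2D1, against 93.2 in TCam-2, 88.7 in GCT27 and 38.9 in GCT44, a 9.19-fold gap.

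Membrane genes of the nervous system came next. CNIH3, an auxiliary protein of AMPA receptors, had 1053 units in NT2D1, against 79.3 in TCam-2, 81.7 in GCT27 and 25.7 in GCT44, a 12.9-fold gap. CNRIP1, which binds the cannabinoid receptor, had 968 units in NT2D1, with every other line below the floor, and was at least 12.7-fold higher. SLC1A2, a glutamate transporter of astrocytes, had 679 units in NT2D1, against 72.3 at most, and was at least 8.88-fold higher. These genes read as present in NT2D1 and near or below the floor elsewhere. LYPD1, a modulator of acetylcholine receptors, had 1113 units in NT2D1, against 20.5 in TCam-2, 150 in GCT27 and 16.3 in GCT44, a 7.39-fold gap. The cadherin CDH6 had 872 units in NT2D1, against 57.3 at most, and was at least 11.4-fold higher, with its 2 further bright probe sets past the rule.

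Germ line and regulatory genes completed the widest gaps. PIWIL2, which acts with piRNAs to silence transposons in the germ line, had 1376 units in NT2D1, against 47.2 in TCam-2, 53.6 in GCT27 and 5.20 in GCT44, and was at least 18.0-fold higher. AURKC, an Aurora kinase of meiosis, had 943 units in NT2D1, against 6.86 in TCam-2, 7.62 in GCT27 and 8.03 in GCT44, and was at least 12.3-fold higher. Neither gene passed the floor in any other line, the seminoma line included. MAF, a leucine zipper transcription factor, had 2321 units in NT2D1, against 151 in TCam-2, 95.2 in GCT27 and 110 in GCT44, a 15.3-fold gap. A second MAF probe set read 2062 units in NT2D1, against 3.71 in TCam-2, 7.76 in GCT27 and 10.7 in GCT44, and another 617, against 13.5 in TCam-2, 15.5 in GCT27 and 39.2 in GCT44. SOX2-OT, the non-coding transcript that overlaps SOX2, had 2872 units in NT2D1, against 197 in TCam-2, 211 in GCT27 and 0.905 in GCT44, a 13.6-fold gap, although SOX2 itself was high in GCT27. The lone SOX2-OT probe set is of a kind that can match several transcripts, so the source of its signal is uncertain and was not tested. LRRC34 (10.4-fold), TMEM178B (10.4-fold), LIX1 (at least 10.2-fold) and C6orf141 (6.99-fold) made up the 25 widest gaps.

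Over the 78 higher genes, the NT2D1 level ran from 313 to 13625 units with a median of 798. The gap was over 16-fold for 7 genes, between 8-fold and 16-fold for 16 and below 8-fold for 55. In 34 genes all 3 other lines lay at or below the floor. GCT27 lay above the floor for 37 of the 78, TCam-2 for 22 and GCT44 for 14. Where some other line was above the floor, the nearest was GCT27 for 27 genes, TCam-2 for 11 and GCT44 for 6. The last genes inside the rule were PTGIS, with a gap of 2.02 on the log2 scale, and LDB2, with 2.01, and the first outside were OPRK1, with 1.97, and RGS7, with 1.93.

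EID1, an inhibitor of the histone acetyltransferases EP300 and CREBBP that also binds the retinoblastoma protein, was the gene with the widest gap below the other lines. Its level was 3.94 units in NT2D1, against 4350 in TCam-2, 4774 in GCT27 and 8166 in GCT44, and it was at least 56.9-fold lower. The second EID1 probe set read 2.15 in NT2D1, against 4581 in TCam-2, 4728 in GCT27 and 8784 in GCT44, and the third 3.71, against 1159 in TCam-2, 1912 in GCT27 and 2893 in GCT44. All 3 probe sets thus lay below the floor in NT2D1 and far above it in the other lines. EPAS1, the oxygen-regulated transcription factor HIF-2 alpha, had 200 units in NT2D1, against 5142 in TCam-2, 9809 in GCT27 and 4232 in GCT44, a 21.1-fold gap. Its remaining probe sets were near or below the floor on all 4 arrays and show nothing either way.

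**Figure D2:**
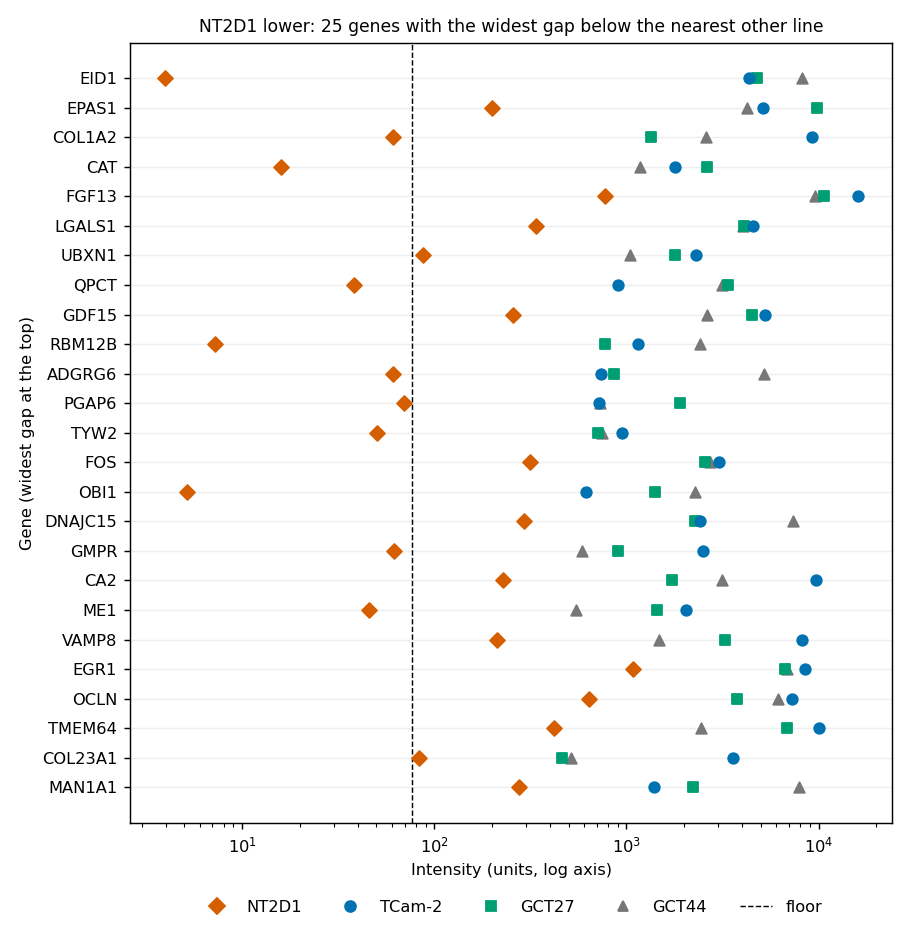
Intensity (units, log axis) of the 25 genes with the widest gap below the nearest other line, 1 array per line. Diamonds are NT2D1, circles TCam-2, squares GCT27 and triangles GCT44, and the dashed line is the floor at 76.4 units. NT2D1 lies to the left of every other line, and EID1, OBI1 and RBM12B read below 10 units there.

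COL1A2, the alpha 2 chain of type I collagen, had 61.1 units in NT2D1, against 9210 in TCam-2, 1345 in GCT27 and 2600 in GCT44, and was at least 17.6-fold lower. A second probe set gave 47.9 units in NT2D1, against 8994 in TCam-2, 1464 in GCT27 and 2414 in GCT44. Its partner chain in type I collagen, COL1A1, was not low, with 6093 units in NT2D1, against 792 in TCam-2, 3982 in GCT27 and 4614 in GCT44. Genes of the same protein trimer therefore stood at opposite ends of the 4 lines. COL23A1, a transmembrane collagen, had 83.7 units in NT2D1, against 3566 in TCam-2, 463 in GCT27 and 517 in GCT44, a 5.53-fold gap.

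Metabolic and redox enzymes were lower in several cases. CAT, the catalase that breaks down hydrogen peroxide, had 15.9 units in NT2D1, against 1795 in TCam-2, 2621 in GCT27 and 1182 in GCT44, and was at least 15.5-fold lower. Another CAT probe set had 75.2 units in NT2D1, against 298 in TCam-2, 536 in GCT27 and 211 in GCT44, which is the same direction with a gap of -1.46 on the log2 scale. ME1, the cytosolic malic enzyme that makes NADPH, had 45.8 units in NT2D1, against 2049 in TCam-2, 1440 in GCT27 and 546 in GCT44, and was at least 7.15-fold lower. GMPR, a GMP reductase, had 61.6 units in NT2D1, against 2499 in TCam-2, 907 in GCT27 and 588 in GCT44, and was at least 7.69-fold lower. For all 3 enzymes NT2D1 was below the floor while the other lines were well above it. QPCT, a glutaminyl cyclase, was at least 11.8-fold lower at 38.2 units, and CA2, a carbonic anhydrase, was 7.55-fold lower at 228.

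Signalling genes and immediate-early genes were also found. FGF13, an intracellular member of the FGF family, had 771 units in NT2D1, against 15998 in TCam-2, 10634 in GCT27 and 9572 in GCT44, a 12.4-fold gap. GDF15, a stress-induced cytokine, had 258 units in NT2D1, against 5254 in TCam-2, 4528 in GCT27 and 2614 in GCT44, a 10.1-fold gap. FOS, an immediate-early transcription factor, had 314 units in NT2D1, against 3049 in TCam-2, 2577 in GCT27 and 2720 in GCT44, an 8.20-fold gap. EGR1, another immediate-early factor, had 1081 units in NT2D1, against 8482 in TCam-2, 6702 in GCT27 and 6842 in GCT44, a 6.20-fold gap. The other 3 lines lay close together for FOS and EGR1 and NT2D1 stood apart from them. DUSP5, a phosphatase that acts on ERK, was picked after its values were seen and had 494 units in NT2D1, against 2340 in TCam-2, 2038 in GCT27 and 4437 in GCT44, a 4.13-fold gap.

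Cell surface, trafficking and housekeeping functions were spread over the rest. LGALS1, the lectin galectin-1, had 338 units in NT2D1, against 4550 in TCam-2, 4093 in GCT27 and 4035 in GCT44, an 11.9-fold gap. OCLN, the tight junction protein occludin, had 641 units in NT2D1, against 7280 in TCam-2, 3783 in GCT27 and 6166 in GCT44, a 5.90-fold gap, and its 3 further probe sets were lowest in NT2D1 too. VAMP8, a vesicle fusion protein, had 213 units in NT2D1, against 8157 in TCam-2, 3245 in GCT27 and 1484 in GCT44, a 6.98-fold gap. These 3 genes were detected in NT2D1 but at a lower level than in any other line. The adhesion receptor ADGRG6 was at least 9.70-fold lower, MAN1A1, a mannosidase of glycan trimming, 5.05-fold and UBXN1, an adaptor of the p97 ATPase, 11.9-fold. TYW2, a tRNA-modifying enzyme, was at least 9.35-fold lower, OBI1, a ubiquitin ligase of replication origins, at least 8.09-fold and DNAJC15, a mitochondrial co-chaperone, 7.73-fold. PGAP6 was at least 9.47-fold lower at 69.7 units, but its other probe set read 268 in NT2D1, against 279 in TCam-2, 578 in GCT27 and 259 in GCT44, and did not show the difference.

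Over the 36 lower genes, the NT2D1 level ran from 3.94 to 1088 units with a median of 194, and it lay at or below the floor for 13 of them. The nearest line was GCT27 for 15 genes, GCT44 for 11 and TCam-2 for 10. The gap was over 16-fold for 3 genes, between 8-fold and 16-fold for 12 and below 8-fold for 21. The last genes inside the rule were MYOF, with a gap of -2.02 on the log2 scale, and CALCOCO2, with -2.01, and the first outside were GRHL1, with -1.99, and KRT19, with -1.98.

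Other probe sets of the same genes gave readings that the choice of probe set had not used, from the same arrays. Of the 78 higher genes 28 had at least 1 further probe set that reached 306 units on some array, which is 4 times the floor. These 40 probe sets all had the highest reading in NT2D1, and 31 were past the rule. For 20 of the 28 genes every such probe set was past it, and for 7 none was, among them C6orf141, FEZ1, GLI3 and STOX2. Most were bright through NT2D1 itself, so the counts describe these arrays and are no support for the calls. Of the 36 lower genes 12 had a further probe set that was bright enough in all 3 other lines. These 16 probe sets were all lowest in NT2D1, and 8 were past the rule. For 5 of the 12 genes every such probe set was past it, and for 5 none was, AK4, CPNE3, DNAJC15, MAN1A1 and WWP1. The remaining 50 higher and 24 lower genes could not be checked in this way.

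**Figure D3:**
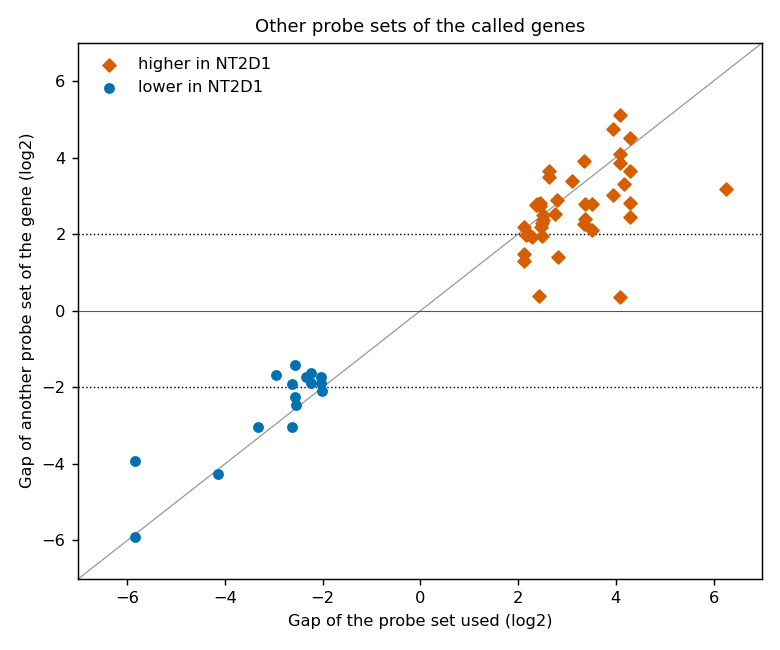
Gap of each further bright probe set of a called gene (vertical, log2) against the gap of the probe set used (horizontal, log2), with diamonds for the 28 higher and circles for the 12 lower genes. The dotted lines mark 2 and -2 and the grey line marks equal gaps. All 40 probe sets of higher genes lie above 0 and all 16 of lower genes below it.

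The study also measured DNA methylation in these lines, so the sequence before the start of 4 of the named genes is shown, with CG dinucleotides, the sites of DNA methylation, in capitals. The 250 bases upstream of the start, from RefSeq on GRCh38.p14, are given 5′ to 3′ for MAP2 and PAPPA, which were higher in NT2D1, and for EPAS1 and CAT, which were lower.
MAP2 (chr2:209661246-209661495, plus strand): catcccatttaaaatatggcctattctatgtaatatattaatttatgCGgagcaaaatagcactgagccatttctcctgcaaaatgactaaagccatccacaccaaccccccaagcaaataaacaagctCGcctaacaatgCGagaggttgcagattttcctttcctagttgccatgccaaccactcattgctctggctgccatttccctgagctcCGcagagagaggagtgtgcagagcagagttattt
PAPPA (chr9:116153541-116153790, plus strand): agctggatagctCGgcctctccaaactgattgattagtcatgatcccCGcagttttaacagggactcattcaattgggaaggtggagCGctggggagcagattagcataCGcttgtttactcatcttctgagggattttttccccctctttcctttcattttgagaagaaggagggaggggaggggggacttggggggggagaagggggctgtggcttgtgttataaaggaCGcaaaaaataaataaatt
EPAS1 (chr2:46297157-46297406, plus strand): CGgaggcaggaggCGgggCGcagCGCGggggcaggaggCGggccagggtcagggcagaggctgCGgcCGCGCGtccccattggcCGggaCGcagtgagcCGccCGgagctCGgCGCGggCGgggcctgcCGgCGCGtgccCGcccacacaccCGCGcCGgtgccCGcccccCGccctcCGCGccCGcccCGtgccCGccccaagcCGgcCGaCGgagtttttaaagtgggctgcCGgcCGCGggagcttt
CAT (chr11:34438684-34438933, plus strand): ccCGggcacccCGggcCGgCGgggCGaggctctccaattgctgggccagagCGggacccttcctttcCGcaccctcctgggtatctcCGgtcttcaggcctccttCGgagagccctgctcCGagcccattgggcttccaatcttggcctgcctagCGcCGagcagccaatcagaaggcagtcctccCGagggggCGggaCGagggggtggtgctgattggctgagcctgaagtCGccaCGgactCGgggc
The motif CG, which reads the same on both strands, occurred 4 times before MAP2, 5 times before PAPPA, 38 times before EPAS1 and 18 times before CAT. Such windows of all genes compared held a median of 20, and 98.5% of them held at least 1. The 4 genes are examples and do not stand for the higher or lower genes as sets. Among the other called genes, RGS5, which was higher, held 22, and VAMP8, which was lower, held 6. An entry matched 57 of the 78 higher genes, 23 of the 36 lower genes and 11913 of the 14926 genes compared. Because fewer than 80% of each set matched, a comparison of CG content between the sets is void and none is made. These counts describe the sequence and not its methylation, which was not analysed here.

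The gene lists place the called genes among others of their pathways. Of 33 neuronal and neural progenitor genes compared, 3 were higher, the markers MAP2, PNMA2 and SOX11, and 0 lower. These 3 were given as markers from these same data, and no other member was called. Over all genes 0.523% were higher and 0.241% lower. The count of 3 was fixed by the choice of markers and cannot be read against these shares. The list's median difference (log2, NT2D1 minus the average of the others) was 1.29, against -0.03 over all genes. NT2D1 held the highest level for 15 of the 33, against 23.6% of all genes compared. Both the median and the 15 take in the 3 markers. NEFM, a neurofilament chain, had 1330 units in NT2D1, against 34.7 in TCam-2, 404 in GCT27 and 5.60 in GCT44, and so fell short of the rule. GAP43, a growth cone protein, had 3264 units in NT2D1, against 71.9 in TCam-2, 1560 in GCT27 and 172 in GCT44. Several neural genes were thus shared with GCT27, and the list's median against GCT27 alone was 0.49. The neuronal gene STMN2 and the proneural gene NEUROG2 lay below the floor on every array. None of 7 glial genes compared was called, with a median of 0.17 that turned to -0.09 without probe sets that match several transcripts and to -0.04 without GCT27, and the astrocyte gene GFAP lay below the floor on every array.

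**Figure D4:**
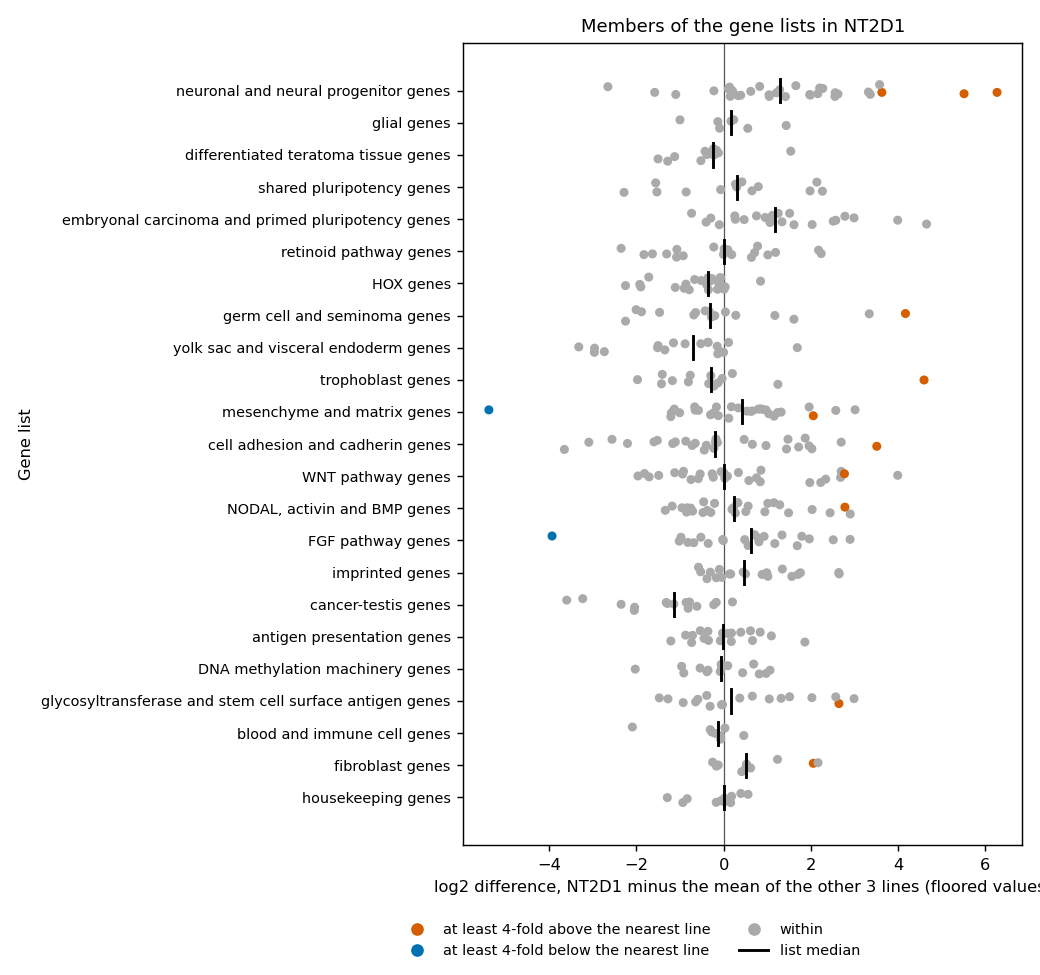
Each point is a member of a gene list, placed by its log2 difference between NT2D1 and the mean of the other 3 lines on floored values, and the black bar is the list's median. Orange and blue points were at least 4-fold above or below the nearest other line. The neuronal list has a median of 1.29, the embryonal carcinoma list 1.19 and the cancer-testis list -1.14.

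Lists of other lineages held at most 1 called gene each. Over all genes 0.523% were higher and 0.241% lower, so lists of this size, here and below, are too short for such counts to be read. Of 16 germ cell and seminoma genes 1 was higher, PIWIL2, and 0 lower, with a median of -0.30. SOX17, a factor of the human germ line, was at 10.4 units in NT2D1, against 3819 in TCam-2, and DAZL, a germ cell RNA-binding protein, was at 234, against 3.76 in TCam-2, 37.3 in GCT27 and 8.96 in GCT44. Of 15 trophoblast genes 1 was higher, PAPPA, with a median of -0.30. CGA, the alpha chain of glycoprotein hormones, lay below the floor at 12.7 units. Of 18 genes of yolk sac or visceral endoderm 0 were called, with a median of -0.70, and 6 of them reached the floor in NT2D1, against 6 in TCam-2, 8 in GCT27 and 15 in GCT44. Of 15 cancer-testis genes 0 were called, with a median of -1.14, and only MAGEC2, at 91.4 units, reached the floor in NT2D1, against 7 genes in TCam-2, 5 in GCT27 and 9 in GCT44. PRAME, a repressor of the retinoic acid receptor, was at 5.65 units, below the floor.

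Mesenchyme, adhesion and surface genes differed among themselves. Of 30 mesenchyme and matrix genes 1 was higher, TWIST2, a transcription factor of mesenchyme (318 units in NT2D1, at least 4.16-fold), and 1 lower, COL1A2. The list median of 0.43 was 0.07 with the median over probe sets, 0.23 without GCT27, 0.05 without TCam-2 and -0.10 without probe sets that match several transcripts, so it has no settled direction. CDH11, a cadherin of mesenchyme, had 3017 units in NT2D1, against 3.30 in TCam-2, 509 in GCT27 and 1338 in GCT44, and was highest in NT2D1 without meeting the rule. Of 28 cell adhesion genes CDH6 was the only one called, with a median of -0.21 that was -0.41 without GCT44 and -0.08 without TCam-2. CDH1, E-cadherin of epithelia, had 580 units in NT2D1, against 17193 in TCam-2, 14524 in GCT27 and 5.77 in GCT44. EPCAM, an epithelial adhesion molecule, had 5782 units in NT2D1, against 28656 in TCam-2, 22390 in GCT27 and 69.2 in GCT44. CLDN7, a claudin of tight junctions, had 3.21 units in NT2D1, against 1830 in TCam-2, 1963 in GCT27 and 4.05 in GCT44. For all 3 epithelial genes NT2D1 lay below TCam-2 and GCT27. GCT44 lay lower still for CDH1 and EPCAM, and for CLDN7 both NT2D1 and GCT44 were below the floor. Of 18 genes for stem cell surface antigens and their glycosylation 1 was higher, ST8SIA2, which adds polysialic acid to neural cell adhesion molecules, at 478 units in NT2D1, against 54.0 in TCam-2, 26.3 in GCT27 and 8.18 in GCT44, at least 6.25-fold. The median of that list was 0.17, and it was -0.01 without GCT44 and 0.56 without TCam-2.

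Signalling lists each held at most 1 called gene. LEF1, a nuclear effector of WNT signalling, was the only one called among 28 WNT genes, with 522 units in NT2D1, against 35.6 in TCam-2, 24.0 in GCT27 and 16.2 in GCT44, at least 6.83-fold higher. The WNT receptor gene FZD1 had 1489 units in NT2D1, against 173 in TCam-2, 108 in GCT27 and 668 in GCT44, and FZD2 had 2413, against 212 in TCam-2, 380 in GCT27 and 1339 in GCT44, both highest in NT2D1 without meeting the rule. GREM1, a secreted BMP antagonist, was the only one called among 28 NODAL, activin and BMP genes, with 666 units in NT2D1, against 49.4 in TCam-2, 120 in GCT27 and 98.9 in GCT44, a 5.53-fold gap. FST, follistatin, which binds activin, had 6152 units in NT2D1, against 1382 in TCam-2, 386 in GCT27 and 2719 in GCT44, and NOG, the BMP antagonist noggin, had 905, against 4.04 in TCam-2, 302 in GCT27 and 59.8 in GCT44. These 3 secreted antagonists were all highest in NT2D1. Over the whole list NT2D1 was highest for 5 of the 28 genes, against 23.6% of all genes compared. The 3 therefore do not stand for the list. NODAL itself had 128 units in NT2D1, against 81.1 in TCam-2, 864 in GCT27 and 80.5 in GCT44. The list median was 0.02 for WNT genes. For NODAL, activin and BMP genes it was 0.25 and turned to -0.25 with the median over probe sets and to -0.24 without GCT27, so its direction is not settled. Among 22 FGF pathway genes FGF13 was lower and 0 were higher, with a median of 0.64 that was 0.29 without GCT44 and 0.99 without GCT27.

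The retinoid pathway is of interest for a line known to respond to retinoic acid. Of 19 retinoid pathway genes 0 were called, with a median of 0.01. The receptor gene RARA had 128 units in NT2D1, against 157 in TCam-2, 231 in GCT27 and 392 in GCT44, and RXRA had 1632, against 891 in TCam-2, 648 in GCT27 and 1994 in GCT44. CYP26A1, which degrades retinoic acid, had 453 units in NT2D1, against 47.4 in TCam-2, 724 in GCT27 and 15576 in GCT44. NRIP1, a nuclear receptor corepressor, had 4237 units in NT2D1, against 1625 in TCam-2, 501 in GCT27 and 1009 in GCT44, and was the highest there. Of 24 HOX genes, targets of retinoic acid along the body axis, 0 were called, with a median of -0.35, and HOXB1 had 78.4 units in NT2D1, near the floor, against 4.30 in TCam-2, 51.9 in GCT27 and 5.66 in GCT44.

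Of the remaining lists, those of imprinted, DNA methylation machinery, antigen presentation, housekeeping and blood genes had 0 called members, and the fibroblast list had 1. The median was 0.48 for 20 imprinted genes, and it was 0.12 without GCT27 and 0.06 without probe sets that match several transcripts. Among these genes PLAGL1 had 5901 units in NT2D1, against 698 in TCam-2, 201 in GCT27 and 5909 in GCT44. The median was -0.06 for 15 genes of the DNA methylation machinery and turned to 0.02 without GCT27 and to 0.05 without TCam-2. DNMT3L, the inactive partner of the de novo methyltransferases, had 15.0 units in NT2D1, against 2083 in TCam-2, 189 in GCT27 and 8.92 in GCT44, and DNMT3B, a de novo methyltransferase, had 11360, against 2841 in TCam-2, 23760 in GCT27 and 2377 in GCT44. The median was -0.02 for 19 antigen presentation genes, with B2M at 9138 units in NT2D1, and 0.01 for 11 housekeeping genes, with GAPDH at 35564. The median was -0.13 for 8 blood and immune genes, or 0.00 without GCT44 and -0.33 without TCam-2. Of these 3 reached the floor in NT2D1, with a summed level of 692 units, against 474 in TCam-2, 1046 in GCT27 and 3648 in GCT44, and the pan-leukocyte gene PTPRC was below the floor on every array. Of 10 fibroblast genes 9 reached the floor in NT2D1, against 6 in TCam-2, 5 in GCT27 and 3 in GCT44, with a summed level of 7704 units in NT2D1, against 12833 in TCam-2, 5293 in GCT27 and 2182 in GCT44. TWIST2 was its called member, and the median was 0.52, or 1.01 without TCam-2. DCN, a defining fibroblast proteoglycan, was below the floor in NT2D1 at 69.3 units. Whether other cells took part in the mesenchymal gene levels of NT2D1 was not tested. The medians of the retinoid, WNT, antigen presentation and housekeeping lists lay within 0.03 of 0, changed sign under at least 1 other scaling of the arrays and have no settled direction either. Medians of lists for other lineages also rested on single lines. Without GCT44 the yolk sac median was 0.00, the cancer-testis median -0.34 and the HOX median -0.12, while without GCT27 the HOX median was -0.57. Without TCam-2 the germ cell and trophoblast medians were both 0.00 and the cancer-testis median was -0.69. The neuronal median ran between 0.96 and 1.41 when each other line was left out, with 9 of its genes called higher without GCT27 and 5 without GCT44. The mean had the opposite sign to the median for the retinoid list (-0.07), the germ cell list (0.03), the antigen presentation list (0.03) and the housekeeping list (-0.18).

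The order of genes along the chromosomes was not used by the rule. Of 545 genes compared on chromosome 8, 7 were lower in NT2D1, 1.28%, against 0.241% over all genes. Of these, CA13 and CA2, which encode carbonic anhydrases, the ubiquitin ligase gene WWP1 and the copine gene CPNE3 stood within a few genes of each other, with TMEM64 a little further along. Between CA13 and TMEM64 lay 16 compared genes, these included, and NT2D1 had the lowest level in 12 of them and in 12 of the 14 whose other lines were all above the floor. The 12 take in 5 called genes, which are lowest by the rule, and of these CA13 and TMEM64 set the ends. That part of the count was therefore fixed in advance. Over all genes compared NT2D1 was lowest for 17.8%. This share includes genes with another line at or below the floor, which cannot count as lowest, so it is no match for the 12 of 14. The median log2 difference of the 16, called genes included, was -2.23 against the average of the others. The ends of the stretch are called genes and no sharp border. Outside it SNX16 (-2.15), RBIS (-1.78) and OTUD6B-AS1 (-1.68) were lowest in NT2D1 too, while others, such as FABP5 (2.29), were not. RIPK2, a kinase of innate immune signalling, had 246 units in NT2D1, against 1216 in TCam-2, 645 in GCT27 and 2207 in GCT44. NBN, a DNA double-strand break repair protein, had 1274 units in NT2D1, against 3624 in TCam-2, 2300 in GCT27 and 7613 in GCT44. DECR1, an enzyme of fatty acid oxidation, had 284 units in NT2D1, against 1634 in TCam-2, 700 in GCT27 and 5960 in GCT44. All 3 lay in this stretch and were lowest in NT2D1 without meeting the rule, while MMP16, ATP6V0D2 and RMDN1 in the same stretch were not lowest there. RBM12B, further along in gene order, was at least 10.1-fold lower at 7.19 units.

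**Figure D5:**
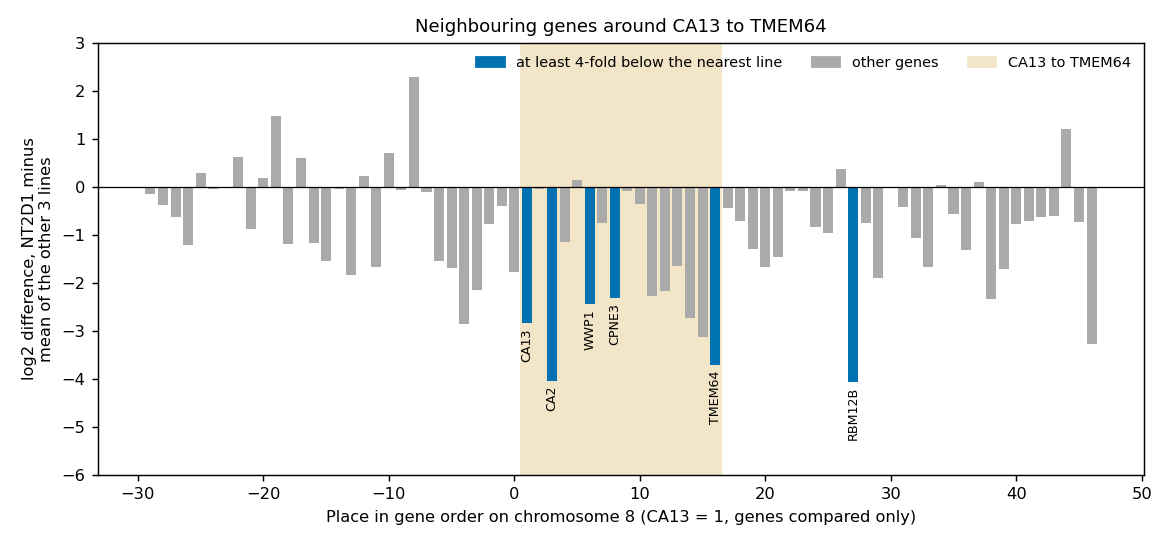
Log2 difference between NT2D1 and the mean of the other 3 lines for consecutive compared genes of chromosome 8, in gene order with CA13 as place 1. Blue bars are genes at least 4-fold below the nearest other line and the shaded stretch runs from CA13 to TMEM64. In it the median difference is -2.23 and 5 of 16 genes are called lower.

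Over 14416 overlapping windows of 21 consecutive compared genes, the lowest median difference was -2.15, at the window centred on WWP1. The lowest window elsewhere had a median of -0.96, on chromosome 22, and the highest in the other direction had 1.15, on chromosome X. The stretch was picked after the values were seen, its genes are not independent of each other, and no test was made. Among the higher genes, neighbours called together were MYH6 with MYH7 on chromosome 14, BHLHE41 with SSPN on chromosome 12, CDH9 with CDH6 on chromosome 5 and JAM2 with CYYR1 on chromosome 21. DPH5-DT with COL11A1 on chromosome 1 and SLC6A15 with MGAT4C on chromosome 12 also lay within 3 compared genes of each other.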

How the data were processed

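Expression was measured on 1 array for each of 4 cell lines. The authors deposited 1 intensity per probe set, on a linear scale, for 54675 probe sets. RMA, whose usual output is in log2, is named in the submitters' processing notes with no version. The authors' values instead have a mean of about 500 on every array after trimming 2% from each end, so they were read as scaled linear signals and converted to log2 here, without further normalization. The array annotation listed 41097 probe sets with 1 gene symbol, 1801 with several and 11777 not at all. Each gene was represented by whichever of its single-gene probe sets averaged highest in log2. Values below 76.4, the median of all values, were set to it, and genes reaching it on no array were left out. No test was made, since no line has a replicate, and precision is limited by the number of arrays. The threshold was 4-fold to the nearest line. The named genes are the 25 widest gaps each way, 3 given markers and list members that met the rule, with examples from 23 lists of 556 entries, of which 433 were compared, 58 lay below the floor and 65 had no probe set of their own. XIST and Y-linked genes were not named. The members, lists and rule were chosen with earlier results of these data known. Gene order came from RefSeq (GRCh38.p14), and the files name no build. The gap rule was run on simulated data with an assumed noise and with changes placed only in genes far above the floor. Calls that rest on the floor were not checked in this way. Python 3.11.15, numpy 2.4.6, pandas 2.3.3 and scipy 1.17.1 were used.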

Additional observations from a re-analysis of the deposited data

How the results depend on the processing

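The counts of 78 higher and 36 lower genes stayed within 1.5 times when a gene's probe sets were summarised by their median (59 and 26), without probe sets that match several transcripts (62 and 25), with arrays centred on the median (78 and 36) and with quantile normalization (78 and 37). The same held for the probe set with the highest linear mean (85 and 38) and for scaling to 18 spiked-in control probe sets (73 and 41), both chosen after seeing the data. They became 121 and 198 with no floor, where low values are not ordered, 29 and 22 with a floor at the 70th percentile of 252 units, 420 and 295 with a threshold of 1 on the log2 scale, and 309 and 208 against the mean of the other lines. Leaving out each other line gave 127 to 267 higher and 86 to 122 lower genes. Similar totals hide changes of members. With the median over probe sets 56 of the 78 higher and 24 of the 36 lower genes were called again. Without probe sets that match several transcripts these numbers were 59 and 24. SOX11 had no value in that last setting, since all its probe sets match several transcripts. Of 55 named genes 24 stayed past the rule under every alternative at a threshold of 2 that gave a value. With the stricter floor 24 fell short, which its construction brings for dim genes, and with the median over probe sets 11 did, among them EPAS1 (0.00), PAPPA (1.16) and CAT (-1.46). Without probe sets that match several transcripts MAF (0.10), COL1A2 (-0.17) and ME1 (-1.33) fell short and PGAP6 reversed to 0.049. In each of these 4 genes another probe set, dimmer on average, took the place of the one used, and for EPAS1, PAPPA and CAT the median took in dimmer ones. No paired analysis was possible because each line has 1 array and the labels give no replicate numbers.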

Other observations

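Among the called genes that the report does not describe were several of synapses and neurons, grouped here after their values were seen and given without a test. GRIN2A, a subunit of NMDA receptors, had 427 units in NT2D1, against 42.8 in TCam-2, 52.5 in GCT27 and 48.4 in GCT44, and was at least 5.59-fold higher. GRIK3, a kainate receptor subunit, had 431 units in NT2D1, against 23.3 in TCam-2, 86.7 in GCT27 and 47.3 in GCT44, a 4.97-fold gap. NETO1, an auxiliary protein of glutamate receptors, had 313 units in NT2D1, against 63.8 at most, and was at least 4.10-fold higher. No list of such genes was fixed, so no share of them can be set against the 0.523% called higher over all genes. LGI1, a secreted neuronal protein linked to epilepsy, was at least 5.39-fold higher at 412 units, and FEZ1, a kinesin adaptor of axon growth, had 3949 units in NT2D1, against 195 in TCam-2, 731 in GCT27 and 119 in GCT44, a 5.40-fold gap. Transcription factors of development were called too. GLI3, an effector of hedgehog signalling, had 2629 units in NT2D1, against 540 in TCam-2, 298 in GCT27 and 45.4 in GCT44, a 4.87-fold gap. ZEB2, a repressor of E-cadherin, had 1125 units in NT2D1, against 5.59 in TCam-2, 16.1 in GCT27 and 232 in GCT44, a 4.84-fold gap. DLX5, a homeobox factor of bone and forebrain, was at least 4.22-fold higher at 323 units.

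Probe sets that carry no gene of their own were not used above. Of 5328 unlisted probe sets that reached the floor, 15 (0.282%) were at least 4-fold higher in NT2D1 than in the nearest line and 1 (0.0188%) was lower. Of 1309 listed with several genes, 3 (0.229%) were higher and 2 (0.153%) lower. Of 28333 single-gene probe sets counted in the same way, 0.434% were higher and 0.191% lower.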
